A study of Homo sapiens with 21 samples.

Results

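The 38 listed genes of the HOXA, HOXB, HOXC and HOXD clusters were matched by Ensembl identifier to the 57500 genes of the count tables, and every one was found. They were described by cluster, by paralog position (the number in the gene's name) and by treatment. RNA came from tumours of HT1376, 1 human bladder carcinoma cell line. Its cells were injected under the skin of female CB17 SCID mice aged 6 to 8 weeks, a strain without mature T and B lymphocytes whose macrophages, fibroblasts, vessels and muscle remain. Dosing began 11 to 15 days later, when tumours averaged 139 to 160 mm3. Every tumour was collected on day 15, 1 hour after dosing, and from when that day is counted is not stated here. The 21 libraries formed 7 groups of 3: vehicle, tazemetostat, CPI-1205, CPI-0209, PF-06821497, valemetostat and the EED binder MAK683. Each of the 6 compounds was given by mouth once daily at 75 mg/kg, and the labels do not name the vehicle.

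HOX genes encode homeodomain transcription factors that give cells their position along the body axis. Within a cluster, genes with low paralog numbers are used in anterior and those with high numbers in posterior tissues, and a differentiated cell keeps much of the pattern of its origin. Polycomb repressive complex 2 (PRC2) methylates lysine 27 of histone H3 through its catalytic subunits EZH2 and EZH1, with EED and SUZ12 as further core subunits, and HOX clusters are among the best known places where this mark keeps genes silent. The series names all 6 compounds EZH2 inhibitors. Valemetostat is known to act on EZH1 as well as EZH2, and MAK683 is known to bind EED.

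PRC2 is known to gather at promoters rich in CG dinucleotides, so the 250 bases before the RefSeq start sites (GRCh38.p14) were read for the members in that table. It held 20 of the 38 members, with 27 starts and 26 distinct windows, since HOXC4 and HOXC5 share one. Member windows held a median of 19.5 CG dinucleotides, against 11 over all 35116 promoters of the table. The windows printed next belong to the gene with the largest rise (HOXD11), the member of the HOXD cluster with the highest mean level (HOXD8), the HOXD gene with the fewest CG dinucleotides (HOXD4) and the tested gene that did not pass the test with CPI-0209 (HOXA4). Each runs 5′ to 3′ on the strand of its gene, with CG dinucleotides in capitals. HOXD11 lies at chr2:176107030-176107279 (+), HOXD8 at chr2:176129455-176129704 (+), HOXD4 at chr2:176151300-176151549 (+) and HOXA4 at chr7:27130758-27131007 (-).
HOXD11: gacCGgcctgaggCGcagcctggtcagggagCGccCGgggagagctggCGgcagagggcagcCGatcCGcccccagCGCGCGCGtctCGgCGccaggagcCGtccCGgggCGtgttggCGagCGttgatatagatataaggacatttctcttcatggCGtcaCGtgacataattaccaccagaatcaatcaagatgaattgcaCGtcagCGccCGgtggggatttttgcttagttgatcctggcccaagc
HOXD8: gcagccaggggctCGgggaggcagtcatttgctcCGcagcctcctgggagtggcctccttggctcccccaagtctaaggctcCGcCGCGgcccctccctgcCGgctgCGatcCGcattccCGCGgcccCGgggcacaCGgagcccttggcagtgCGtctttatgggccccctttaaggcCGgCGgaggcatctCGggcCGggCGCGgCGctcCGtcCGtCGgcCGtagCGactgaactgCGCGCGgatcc
HOXD4: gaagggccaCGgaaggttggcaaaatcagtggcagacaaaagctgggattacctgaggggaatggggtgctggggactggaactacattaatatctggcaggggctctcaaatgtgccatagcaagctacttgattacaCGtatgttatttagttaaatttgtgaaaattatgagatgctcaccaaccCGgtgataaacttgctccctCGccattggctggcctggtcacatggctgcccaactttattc
HOXA4: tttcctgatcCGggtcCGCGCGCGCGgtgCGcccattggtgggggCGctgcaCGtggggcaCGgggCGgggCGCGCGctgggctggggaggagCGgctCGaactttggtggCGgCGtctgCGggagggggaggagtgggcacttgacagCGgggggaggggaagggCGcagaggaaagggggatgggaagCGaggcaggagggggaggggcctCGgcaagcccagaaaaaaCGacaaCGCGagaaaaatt

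The HOXD11 window held 23 CG dinucleotides, more than 74.2% of all promoters. HOXD8 held 28, HOXA4 held 26 and HOXD4 held 4, and fewer were found in 84.1%, 80.4% and 29.3% of all promoters. HOXA4 and HOXD11 both lay in windows with more CG dinucleotides than the median, and their values with CPI-0209 were far apart. The letters TATAAA, the core promoter motif, were found on either strand in 5 of the 26 member windows, against 10.7% of all windows of that length. These belong to HOXD13, HOXA3, HOXA9 and HOXA10, the last with both of its windows. Some genes have several windows, HOXA3 the most, so windows are not independent genes. TGATNNAT, a sequence recognised by HOX proteins together with their PBX partners, was found on either strand in 3 of the 26 member windows (HOXD11, HOXA2 and HOXB1), against 6.47% of all windows. No member window held both.

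Depth ranged between 9725690 counts, in CPI-0209 library 3, and 25771778, with 31834 to 35733 genes detected. Levels are given as CPM, the count as a share of the TMM-scaled library total, in the order of libraries 1, 2 and 3, and, for comparisons between genes, as RPKM, which divides by gene length. A count of 0 in the smallest library allows a level of up to 0.308 CPM, from 3 counts. These limits, and the counting intervals of ratios, hold for counting error alone. Whether each library is a separate animal is not stated in the labels, and p-values then reflect only the spread among these libraries, which may be technical. All 14 urothelial carcinoma markers were tested, and their median log2 CPM lay between 8.71 and 9.27 in the 21 libraries. In the test used below, 2 rose and 5 fell with CPI-0209, 2 and 2 with valemetostat and 1 and 1 with MAK683. Over all genes, 22.3% rose and 18.8% fell with CPI-0209, 15% and 12.2% with valemetostat and 10.4% and 5.17% with MAK683. The markers summed to 13662 to 14342 CPM in vehicle and 10158 to 11909 CPM with CPI-0209. CPI-0209 library 3 stood apart: it had the fewest counts, the highest summed HOX level and the highest level of skeletal muscle genes. HOX calls against vehicle that were lost without it are given with both values. Calls between single pairs of compounds are given from all libraries only. A resubmission mark stands in the titles of 1 PF-06821497 library and 2 CPI-1205 libraries and of no other, so what it stands for and those compounds cannot be fully told apart.

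A gene was tested where its counts reached about 0.460 CPM in at least 3 libraries, the size of a group. This kept 25 of the 38 members and left out 13. The filter level was reached in all 3 vehicle libraries by 5 members (HOXA4, HOXA5, HOXC6, HOXC8 and HOXC13). In all 3 libraries of a group it was reached by 22 members with CPI-0209, 11 with valemetostat, 10 with MAK683, 4 with tazemetostat, 3 with PF-06821497 and 2 with CPI-1205. Most members therefore entered the test through a treated group, so a count or median over the 25 describes them and is not independent support. Neighbouring genes also share sequence. Exons of 23 of the 38 members overlapped those of another gene in the tables, by over 50% of their bases in HOXA7, HOXC5, HOXD1, HOXD3 and HOXD4. The strand setting of the counting is not given in the sources used here, so reads of a HOX gene and its antisense partner cannot be told apart.

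HOX RNA was scarce in vehicle tumours. The 38 members together held 219, 189 and 284 counts in the 3 vehicle libraries, or 9.9, 7.92 and 13.2 CPM, and 24 to 29 members had a count. Per length, HOXA5 (0.783 ± 0.0418 RPKM, SD, n = 3), HOXA4 (0.752 ± 0.0777 RPKM) and HOXC8 (0.597 ± 0.253 RPKM) stood highest, within their spread of one another. HOXC13, needed for hair and nail growth, followed at 0.385 ± 0.126 RPKM, then HOXC6 at 0.258 ± 0.0883 RPKM and HOXD8 at 0.246 ± 0.141 RPKM. In a bulk tumour, a higher level in all cells and a larger number of expressing cells cannot be told apart, and this holds for every result here.

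Summed over the 38 members, HOX RNA stood at 40.7, 62 and 132 CPM with CPI-0209, 17.7, 18.9 and 29.6 CPM with valemetostat and 48, 17.8 and 23.7 CPM with MAK683. Every library of these groups lay above the 3 vehicle libraries. Tazemetostat gave 8.18, 14.9 and 7.76 CPM, PF-06821497 15.2, 5.66 and 11.6 CPM and CPI-1205 13.4, 10.2 and 4.65 CPM, and each of these groups overlapped vehicle. Members with a count numbered 35 to 36 per library with CPI-0209, 33 to 34 with valemetostat and 32 to 35 with MAK683.

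**Figure D1:**
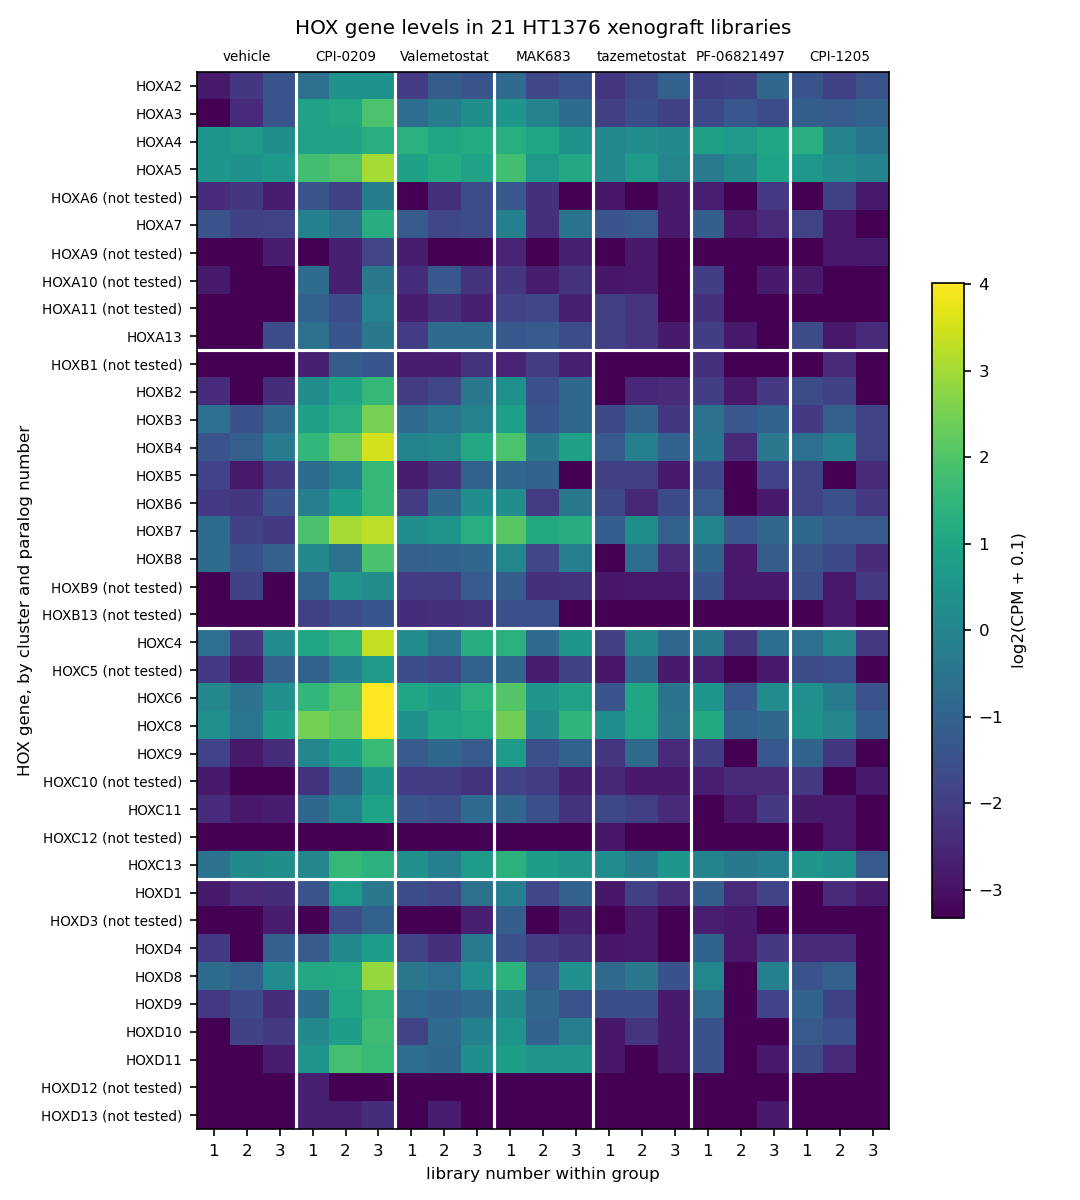
Level of each of the 38 HOX genes, as log2(CPM + 0.1), in rows by cluster and paralog number, and of the 21 libraries in columns by group; genes that were not tested are marked. The CPI-0209 columns are the brightest in all 4 clusters, library 3 most of all, while HOXA4, HOXA5 and HOXC13 are visible in every group.

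With CPI-0209, HOX genes of all 4 clusters were higher than in vehicle. Of the 25 tested, 24 rose and 0 fell (edgeR quasi-likelihood test, 2-sided, Benjamini-Hochberg adjusted p under 0.05), against 22.3% of all genes tested that were higher and 18.8% that were lower. Log2 fold changes are given ± their SE. The median was 3.02, ranging from 0.58 for HOXA4 to 6.93 for HOXD11, and the median over all tested genes was -0.02. Every CPI-0209 library lay above every vehicle library for 23 members, against 27.5% of all genes. Among the 5 members that reached the filter level in vehicle itself, 4 rose and the median was 1.89. With no filter, so that all 38 members entered, 31 rose, against 13.8% of all genes. Scaling by the upper quartile moved the median of all genes with CPI-0209 to 0.12 and their split to 26.7% higher and 12.8% lower, and left 24 HOX genes higher and 0 lower.

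By cluster, 5 of 6 tested HOXA genes rose with CPI-0209 (median log2 fold change 2.53), as did 7 of 7 HOXB genes (3.38), 6 of 6 HOXC genes (3.01) and 6 of 6 HOXD genes (3.42). By position, 5 of 5 anterior genes (paralogs 1 to 3) rose with a median of 3.37, 12 of 13 central genes (4 to 8) with a median of 2.91, and 7 of 7 posterior genes (9 to 13) with a median of 3.89. Ranges overlapped across positions, from 2.7 to 4.85, from 0.58 to 4.7 and from 1.15 to 6.93, and no difference between clusters or positions was tested. Paralogs took different values within 1 position: at position 4 the log2 fold changes were 0.58 for HOXA4, 3.77 for HOXB4, 3.02 for HOXC4 and 2.44 for HOXD4, and at position 13 they were 2.62 for HOXA13 and 1.15 for HOXC13. Without library 3, 18 of the 25 rose with CPI-0209 in place of 24, against 18.9% of all genes, and the median was 2.41 in place of 3.02. Cluster medians were then 2.07 in HOXA (3 of 6 rose), 2.66 in HOXB (6 of 7), 2.06 in HOXC (5 of 6) and 3.22 in HOXD (4 of 6). The calls lost were HOXA7, HOXA13, HOXB8, HOXC13, HOXD4 and HOXD8.

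**Figure D2:**
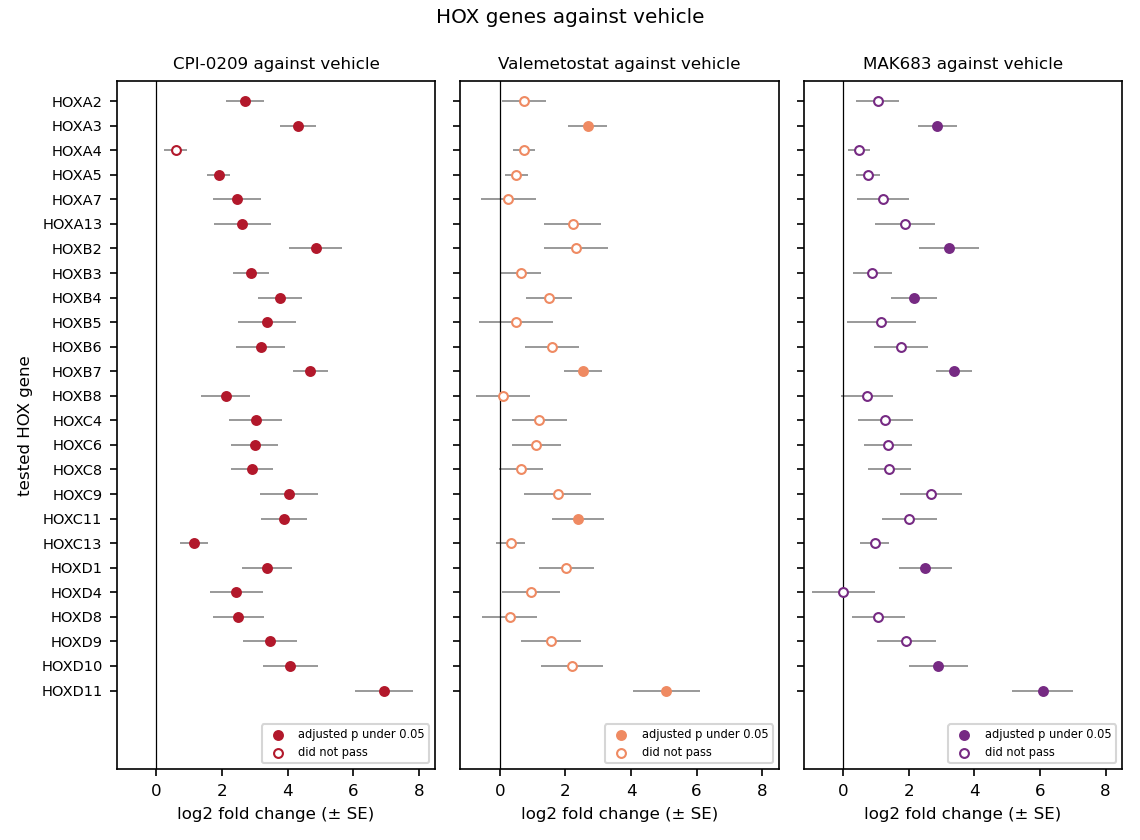
Log2 fold change against vehicle (x axis, bars are ± SE) of the 25 tested HOX genes (y axis) for CPI-0209, valemetostat and MAK683; filled points passed the test. HOXD11 stands farthest right in each panel, at 6.93, 5.07 and 6.09, and HOXA4 is the single open point with CPI-0209.

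In the HOXD cluster on chromosome 2, HOXD11 (chr2:176104216-176109754), which acts in limb and kidney development, was nearly silent in vehicle. It stood at 0, 0 and 0.0465 CPM in vehicle and at 1.28, 3.44 and 2.96 CPM with CPI-0209. Valemetostat gave 0.513, 0.444 and 1.16 CPM and MAK683 gave 1.61, 1.32 and 1.33 CPM. Its other levels were 0.0399, 0 and 0.0431 CPM with tazemetostat, 0.259, 0 and 0.0438 CPM with PF-06821497 and 0.227, 0.0824 and 0 CPM with CPI-1205. No vehicle, tazemetostat, PF-06821497 or CPI-1205 library reached any library of the other 3 compounds. Vehicle held 1 count of HOXD11 in all, so ratios to vehicle have wide intervals. They were taken from the counts pooled over each group, divided by its summed TMM-scaled library totals. The ratio was 168 (counting interval 29.5 to 6682) with CPI-0209, 46.2 (counting interval 7.84 to 1869) with valemetostat and 95 (counting interval 16.5 to 3799) with MAK683. The fitted log2 fold changes, which depend on the prior count, were 6.93 ± 0.88, 5.07 ± 1.02 and 6.09 ± 0.93 (SE), with edgeR adjusted p of 2.54e-06, 0.000755 and 7.78e-05. HOXD11 shares 21.4% of its exon bases with HOXD10 on the same strand.

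HOXD10, the next gene along and also a limb gene, stood at 0, 0.168 and 0.14 CPM in vehicle and 1, 1.61 and 3.15 CPM with CPI-0209. It was at 0.186, 0.493 and 0.826 CPM with valemetostat and 1.3, 0.391 and 0.776 CPM with MAK683. The 3 remaining groups were at 0.0399, 0.121 and 0.0431 CPM with tazemetostat, 0.259, 0 and 0 CPM with PF-06821497 and 0.317, 0.247 and 0 CPM with CPI-1205. Every library of the first 3 compounds lay above vehicle. The rise passed the test with CPI-0209 (4.09 ± 0.85, adjusted p = 0.000573, edgeR) and MAK683 (2.89 ± 0.9, adjusted p = 0.0316) and not with valemetostat (2.19 ± 0.95, adjusted p = 0.0933). The rise with MAK683 did not pass without MAK683 library 1.

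HOXD8, a central gene of the trunk, was at 0.497, 0.377 and 1.07 CPM in vehicle and 2.06, 2.12 and 7.16 CPM with CPI-0209. Valemetostat gave 0.653, 0.542 and 1.21 CPM and MAK683 2.59, 0.342 and 1.22 CPM. It was listed at 0.479, 0.643 and 0.259 CPM with tazemetostat, 0.933, 0 and 0.789 CPM with PF-06821497 and 0.272, 0.371 and 0 CPM with CPI-1205. Vehicle was overlapped by every group but CPI-0209, for which the change was 2.49 ± 0.77, adjusted p = 0.0141 (edgeR). Without CPI-0209 library 3 it was 1.69, with adjusted p = 0.0974. Among the other HOXD genes, HOXD9 rose by 3.46, HOXD1 by 3.37 and HOXD4 by 2.44 on the log2 scale with CPI-0209. HOXD4 did not pass without library 3 (2.01, adjusted p = 0.0837). Of these, HOXD1 also rose with MAK683 (2.51 ± 0.82, adjusted p = 0.0406, edgeR). That call was kept in 6 of 15 alternative fits, leaving aside the fit with fibroblast markers.

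In the HOXB cluster on chromosome 17, HOXB7 (chr17:48607227-48633572), a trunk gene with no exon overlap, carried the largest HOX level per length with CPI-0209, at 4.67 ± 2.04 RPKM (SD, n = 3). It stood at 0.497, 0.168 and 0.14 CPM in vehicle and 3.62, 8.26 and 9.54 CPM with CPI-0209. It was at 1.17, 1.28 and 2.31 CPM with valemetostat and 4.2, 2.1 and 2.27 CPM with MAK683. The other compounds gave 0.359, 1.17 and 0.388 CPM with tazemetostat, 0.881, 0.3 and 0.438 CPM with PF-06821497 and 0.453, 0.33 and 0.313 CPM with CPI-1205. Vehicle stayed below every library of the first 3 compounds, while 1 tazemetostat library (1.17 CPM) reached the lowest valemetostat value. HOXB7 rose by 4.7 ± 0.54, adjusted p = 6.73e-07 with CPI-0209, by 2.53 ± 0.57, adjusted p = 0.00216 with valemetostat and by 3.38 ± 0.55, adjusted p = 0.000162 with MAK683 on the log2 scale (edgeR). Per length, HOXB7 and HOXC8 (4.58 ± 3.39 RPKM) did not differ beyond their spread with CPI-0209.

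HOXB4, known for expanding blood stem cells when raised, was at 0.271, 0.377 and 0.698 CPM in vehicle and 2.78, 4.82 and 11.3 CPM with CPI-0209. Valemetostat libraries held 0.886, 0.936 and 2.04 CPM and MAK683 libraries 3.7, 0.684 and 1.72 CPM. It stood at 0.319, 0.804 and 0.388 CPM with tazemetostat, 0.622, 0.0858 and 0.658 CPM with PF-06821497 and 0.544, 0.824 and 0.179 CPM with CPI-1205. CPI-0209 and valemetostat did not overlap vehicle, and MAK683 did through library 2. HOXB4 rose with CPI-0209 (3.77 ± 0.67, adjusted p = 0.000158, edgeR) and MAK683 (2.15 ± 0.7, adjusted p = 0.0408), and did not pass with valemetostat (1.5 ± 0.72, adjusted p = 0.13). Without MAK683 library 1 the change with MAK683 was 1.4 (adjusted p = 0.271).

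HOXB3, a hindbrain gene whose exons partly overlap HOXB4 and HOXB6, was at 0.542, 0.251 and 0.465 CPM in vehicle and 1.73, 2.35 and 5.53 CPM with CPI-0209. It was at 0.466, 0.641 and 0.881 CPM with valemetostat and at 1.67, 0.293 and 0.443 CPM with MAK683. For the other groups it was at 0.199, 0.402 and 0.129 CPM with tazemetostat, 0.57, 0.3 and 0.395 CPM with PF-06821497 and 0.136, 0.371 and 0.179 CPM with CPI-1205. Only CPI-0209 was clear of vehicle among the 6 compounds, with a change of 2.88 ± 0.55, adjusted p = 0.000241 (edgeR). HOXB2, the hindbrain gene beside it, rose with CPI-0209 (4.85 ± 0.82) and MAK683 (3.22 ± 0.91, adjusted p = 0.0181). HOXB6, HOXB5 and HOXB8 rose with CPI-0209 by 3.18, 3.38 and 2.11, and HOXB8 did not pass without CPI-0209 library 3 (1.07, adjusted p = 0.286).

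In the HOXA cluster on chromosome 7, HOXA3 (chr7:27106184-27152581), needed for the thymus and parathyroid glands, was at 0, 0.0838 and 0.279 CPM in vehicle and 1.78, 2.07 and 3.72 CPM with CPI-0209. It was at 0.513, 0.739 and 1.16 CPM with valemetostat and 1.36, 0.879 and 0.499 CPM with MAK683. Its remaining values were 0.16, 0.241 and 0.172 CPM with tazemetostat, 0.207, 0.3 and 0.219 CPM with PF-06821497 and 0.363, 0.33 and 0.402 CPM with CPI-1205. CPI-0209, valemetostat, MAK683 and CPI-1205 all lay above vehicle in every library. HOXA3 rose by 4.31 ± 0.55, adjusted p = 2.7e-06 with CPI-0209, by 2.68 ± 0.6, adjusted p = 0.00191 with valemetostat and by 2.86 ± 0.59, adjusted p = 0.00171 with MAK683 on the log2 scale (edgeR). With CPI-1205 the change was 1.57 ± 0.65, adjusted p = 0.342, and did not pass.

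HOXA4 and HOXA5 were already the highest members per length in vehicle. HOXA5, which acts in lung and neck development, was at 1.36, 1.26 and 1.4 CPM in vehicle and 3.34, 3.9 and 8.01 CPM with CPI-0209. It was at 1.72, 2.22 and 1.76 CPM with valemetostat and 3.33, 1.47 and 2.05 CPM with MAK683, and at 0.957, 1.45 and 0.905 CPM with tazemetostat, 0.726, 1.03 and 1.8 CPM with PF-06821497 and 1.41, 1.07 and 0.894 CPM with CPI-1205. CPI-0209, valemetostat and MAK683 were clear of vehicle, and the change passed the test with CPI-0209 (1.89 ± 0.35, adjusted p = 0.000203, edgeR) but not with valemetostat (0.51 ± 0.36, adjusted p = 0.322) or MAK683 (0.76 ± 0.36, adjusted p = 0.18).

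HOXA4, a trunk gene, was at 1.36, 1.42 and 1.16 CPM in vehicle and 1.78, 1.84 and 2.39 CPM with CPI-0209. It was at 2.42, 1.92 and 2.2 CPM with valemetostat and 2.35, 1.9 and 1.27 CPM with MAK683. Its other levels stood at 0.957, 1.13 and 1.03 CPM with tazemetostat, 1.71, 1.46 and 1.89 CPM with PF-06821497 and 2.31, 0.865 and 0.626 CPM with CPI-1205. CPI-0209, valemetostat and PF-06821497 libraries lay above vehicle without overlap, yet the log2 differences were 0.58 ± 0.34, adjusted p = 0.182 (edgeR), 0.73 ± 0.33, adjusted p = 0.11 and 0.35 ± 0.33, adjusted p = 0.581. The 95% interval for HOXA4 with CPI-0209, -0.13 to 1.3, lay below the fitted fold changes of HOXA3 and HOXA5 on each side of it. Those fold changes have errors of their own, and no difference between genes was tested. HOXA4 shares 47.3% of its exon bases with other genes. Among the other HOXA genes, HOXA2, HOXA7 and HOXA13 rose with CPI-0209 by 2.7, 2.45 and 2.62. Without library 3, HOXA7 (1.73, adjusted p = 0.0835) and HOXA13 (2.41, adjusted p = 0.0552) did not pass.

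In the HOXC cluster on chromosome 12, the central genes HOXC8, HOXC6 and HOXC4, which pattern the chest region, held most of the counts, and CPI-0209 library 3 was far above the other libraries for each. HOXC8 (chr12:54009106-54012362), with no exon overlap, was at 1.18, 0.628 and 1.58 CPM in vehicle and 5.45, 4.48 and 16 CPM with CPI-0209. It was at 1.26, 1.92 and 2.15 CPM with valemetostat and 5.25, 1.12 and 2.66 CPM with MAK683, and at 1.16, 1.89 and 0.646 CPM with tazemetostat, 2.07, 0.386 and 0.438 CPM with PF-06821497 and 1.22, 0.906 and 0.357 CPM with CPI-1205. CPI-0209 alone was clear of vehicle, with a change of 2.91 ± 0.65, adjusted p = 0.00132 (edgeR), or 2.14 (adjusted p = 0.01) without library 3. Valemetostat (0.65 ± 0.67, adjusted p = 0.512) and MAK683 (1.4 ± 0.66, adjusted p = 0.174) did not pass.

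HOXC6 was at 0.949, 0.586 and 1.21 CPM in vehicle and 2.78, 3.96 and 15.8 CPM with CPI-0209. Valemetostat and MAK683 libraries held 1.91, 1.58 and 2.48 CPM and 4.07, 1.32 and 1.77 CPM. It was at 0.279, 2.01 and 0.603 CPM with tazemetostat, 1.35, 0.3 and 1.05 CPM with PF-06821497 and 1.18, 0.7 and 0.268 CPM with CPI-1205. All 3 of CPI-0209, valemetostat and MAK683 were above vehicle, and the change passed with CPI-0209 (3.00 ± 0.71, adjusted p = 0.00236, edgeR), with a value of 1.88 (adjusted p = 0.025) without library 3. With valemetostat it was 1.12 ± 0.73, adjusted p = 0.28, and with MAK683 1.37 ± 0.73, adjusted p = 0.244.

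HOXC4 was at 0.542, 0.126 and 1.07 CPM in vehicle and 1.89, 2.64 and 10.02 CPM with CPI-0209. It held 1.12, 0.641 and 2.26 CPM with valemetostat and 2.41, 0.488 and 1.39 CPM with MAK683. Further levels were 0.16, 0.965 and 0.431 CPM with tazemetostat, 0.674, 0.129 and 0.526 CPM with PF-06821497 and 0.544, 0.906 and 0.134 CPM with CPI-1205. Only the CPI-0209 libraries, among those of the 6 compounds, were all above vehicle, with a change of 3.02 ± 0.8, adjusted p = 0.00493 (edgeR), or 1.98 (adjusted p = 0.0481) without library 3. Of the posterior HOXC genes, HOXC9 and HOXC11 rose with CPI-0209 by 4.04 and 3.89, and HOXC13 by 1.15 ± 0.44, adjusted p = 0.0419. The HOXC13 libraries with CPI-0209 (0.946, 2.87 and 2.48 CPM) overlapped vehicle (0.588, 1.05 and 1.16 CPM), and without library 3 it did not pass (1.02, adjusted p = 0.11). HOXC11 also rose with valemetostat (2.39 ± 0.79, adjusted p = 0.0274).

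**Figure D3:**
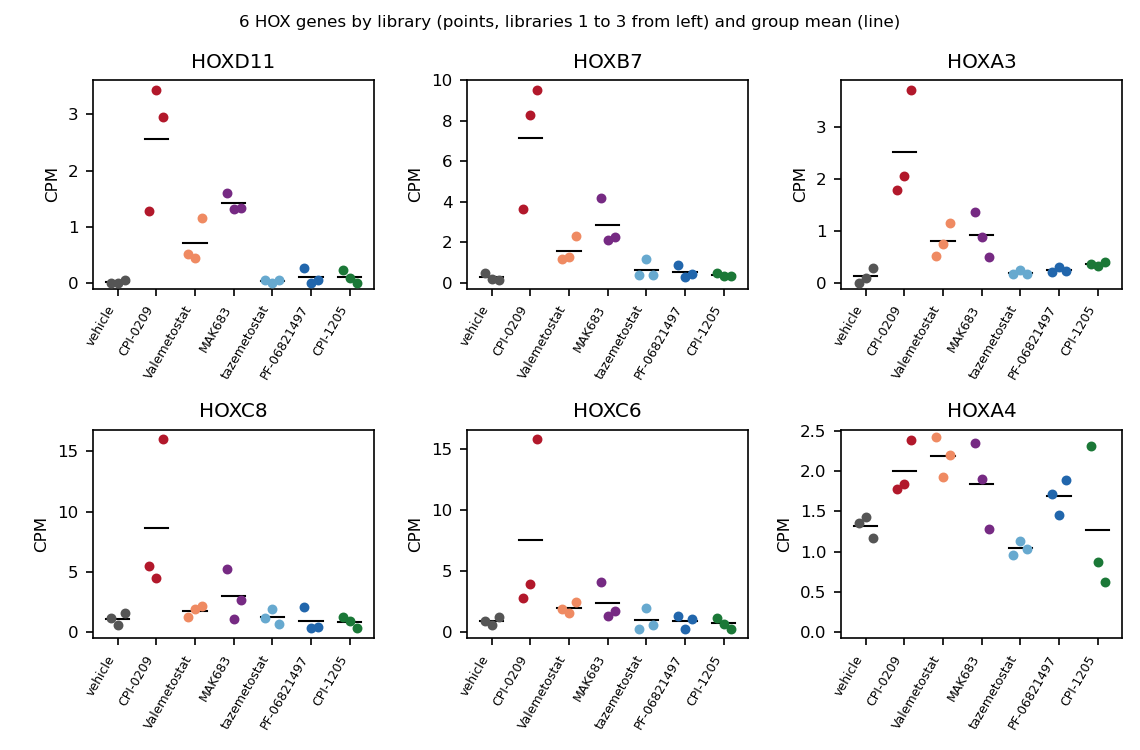
Level in CPM (linear y axes, each panel with its own scale) of HOXD11, HOXB7, HOXA3, HOXC8, HOXC6 and HOXA4 in each library, as points for libraries 1 to 3 from the left, with the group mean as a line. CPI-0209, valemetostat and MAK683 stand clear of vehicle for HOXD11, HOXB7 and HOXA3, while CPI-0209 library 3 is far above the rest for HOXC8 and HOXC6.

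With valemetostat, fewer HOX genes passed the test: HOXA3, HOXB7, HOXC11 and HOXD11, 1 in each cluster. These were 4 of the 25 tested, with 0 lower, against 15% of all genes tested that were higher and 12.2% that were lower. The share of members called higher was thus near that of all genes. The median log2 fold change of the 25 was 1.21, and 13 members lay above vehicle in every library, against 23.3% of all genes. Those that did not pass ranged from 0.11 for HOXB8 to 2.33 for HOXB2. Medians over the tested members were 0.73 in HOXA, 1.5 in HOXB, 1.16 in HOXC and 1.80 in HOXD. With no filter, 11 of the 38 members rose, against 7.82% of all genes. None of the 5 members at the filter level in vehicle passed. By edgeR, 10 of the 25 had an unadjusted p under 0.05, against 8364 of all 21958 genes tested, a similar share.

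With MAK683, 7 of the 25 tested rose and 0 fell, against 10.4% of all genes tested that were higher and 5.17% that were lower: HOXA3 (2.86), HOXB2 (3.22), HOXB4 (2.15), HOXB7 (3.38), HOXD1 (2.51), HOXD10 (2.89) and HOXD11 (6.09). No HOXC gene passed, although the 6 tested ones had a median log2 fold change of 1.38. The median of the 25 was 1.40, and 12 members lay above vehicle in every library, against 19.2% of all genes. HOXD4 took the lowest value at 0.00 ± 0.97. With no filter, 15 of the 38 rose, against 5.61% of all genes. The count rested on single libraries: it was 3 without MAK683 library 1, 4 without MAK683 library 3, 4 without vehicle library 1 and 3 without vehicle library 2.

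With tazemetostat, PF-06821497 or CPI-1205 there were 0 HOX genes higher and 0 lower of the 25 tested (edgeR), against 0%, 5.96% and 0% of all genes tested that were higher and 0%, 3.59% and 0% that were lower. DESeq2 and limma-voom also called 0 higher in each. By edgeR, an unadjusted p under 0.05 was reached by 0, 0 and 1 of the 25 (HOXA3 with CPI-1205). Of all 21958 genes tested, 648, 5071 and 2713 reached it. Median log2 fold changes were 0.09, 0.01 and -0.06. No member with tazemetostat and 1 with each of the other compounds lay above vehicle in every library, against 6.03%, 14% and 9.32% of all genes. For HOXB7 the difference from vehicle was 1.24 ± 0.62 with tazemetostat (95% interval -0.04 to 2.53), 0.97 ± 0.65 with PF-06821497 (-0.38 to 2.31) and 0.44 ± 0.68 with CPI-1205 (-0.97 to 1.85). For HOXD11 the intervals were wide, -2.81 to 4.16, -0.71 to 5.21 and -0.51 to 5.26, and these groups held 2, 6 and 7 counts of it.

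The 6 compounds were given at 1 dose and sampled at 1 time. Without the libraries that carry a resubmission mark, CPI-1205 keeps only its library 1, so no calls among the compounds are given for that fit. In the overall test among the 6 compounds with all libraries, 22 of the 25 tested members differed, against 32.3% of all genes tested. HOXA4, HOXA13 and HOXC13 did not pass. All comparisons with vehicle share the same 3 control libraries, whereas these do not use vehicle. Over the 15 pairs, with p adjusted jointly over all genes and pairs, 103 member calls were made, where 11.6% of all gene-by-pair tests were called. Leaving out 1 treated library at a time gave 70 to 126 member calls, and the single pairs that follow use all libraries. CPI-0209 gave higher levels of 22 members than tazemetostat, of 22 than PF-06821497 and of 22 than CPI-1205, against 16.9%, 12.1% and 17.1% of all genes. Against valemetostat 10 members were higher with CPI-0209 (2.91% of all genes) and against MAK683 6 (5.57%). No member was lower with CPI-0209 in any of these pairs, where 12.4%, 6.73%, 11.3%, 0.569% and 4.44% of all genes were, in the same order.

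The members higher with CPI-0209 than with MAK683 were HOXB3 (1.99 ± 0.52), HOXA3, HOXA5, HOXC11, HOXB7 and HOXA2 (1.65 ± 0.53, adjusted p = 0.048 over the 15 pairs, edgeR). HOXD11 was not among them, with a log2 difference of 0.84 ± 0.49 (95% interval -0.18 to 1.87). Against valemetostat, HOXB7 led with 2.16 ± 0.44 (adjusted p = 0.00194) and HOXD11 was higher by 1.86 ± 0.53 (adjusted p = 0.0224).

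Valemetostat and MAK683 gave 0 member calls against each other by edgeR, DESeq2 or limma-voom, against 0.747% of all genes higher and 0.733% lower by edgeR. An unadjusted p under 0.05 by edgeR was reached by 0 members, beside 1574 of all 21958 genes tested. The log2 difference was -1.02 ± 0.54 for HOXD11 (95% interval -2.13 to 0.1), -0.85 ± 0.45 for HOXB7 (-1.78 to 0.08) and -0.19 ± 0.46 for HOXA3 (-1.14 to 0.77), so differences of up to those bounds remain possible. Valemetostat was higher than tazemetostat for HOXD11, HOXA3 and HOXA4 (10.3% of all genes), than PF-06821497 for HOXD11 and HOXA3 (4.66%), and than CPI-1205 for HOXB7, HOXC11 and HOXD11 (11.4%). It was lower for 0 members in these 3 pairs, where 7%, 2% and 7.03% of all genes were lower.

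MAK683 was higher than tazemetostat for 5 members (7.46% of all genes), than PF-06821497 for 4 (2.66%) and than CPI-1205 for 4 (9.47%). It was lower for 0 members, where 2.43%, 0.893% and 4.54% of all genes were lower. HOXD11 and HOXB7 were in all 3 sets, with HOXD11 at 5.41 ± 0.84, 3.84 ± 0.71 and 3.72 ± 0.69. Tazemetostat, PF-06821497 and CPI-1205 gave 0 member calls among themselves by edgeR, DESeq2 or limma-voom. An unadjusted p under 0.05 by edgeR was reached by 0, 1 and 1 members, beside 3175, 2265 and 3920 of all 21958 genes tested. The pairs are tazemetostat against PF-06821497, tazemetostat against CPI-1205 and PF-06821497 against CPI-1205. Of all genes, 1.53% were higher and 3.3% lower with tazemetostat than with PF-06821497, 0.792% and 0.583% with tazemetostat than with CPI-1205, and 4.7% and 2.14% with PF-06821497 than with CPI-1205. For HOXB7 the interval of tazemetostat against PF-06821497 was -0.89 to 1.44 and that against CPI-1205 was -0.41 to 2.02.

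Skeletal muscle genes were read as a check on RNA from the mouse, since HT1376 cells are of urothelial origin and any step to remove mouse reads is not given in the sources used here. MYH4, a myosin of fast muscle fibres, stood at 5.2, 0.0419 and 18 CPM in vehicle, 36.7, 8.43 and 243 CPM with CPI-0209, 2.24, 9.31 and 18.5 CPM with valemetostat and 10.6, 0.147 and 26.6 CPM with MAK683. It was at 3.19, 14.1 and 2.54 CPM with tazemetostat, 20.4, 0.601 and 9.51 CPM with PF-06821497 and 1.22, 3.87 and 0.179 CPM with CPI-1205. ACTA1, the actin of skeletal muscle, was at 13.9, 0.838 and 23.6 CPM in vehicle and 46.1, 19.8 and 385 CPM with CPI-0209. It was at 3.92, 14.7 and 27 CPM with valemetostat, 12.6, 0.977 and 40.6 CPM with MAK683, and 3.79, 28.8 and 5.64 CPM with tazemetostat, 31.8, 1.59 and 26.3 CPM with PF-06821497 and 4.26, 7.13 and 0.938 CPM with CPI-1205. Both genes spread widely within each group, and CPI-0209 library 3 was highest for both.

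Of 19 tested muscle markers, 8 rose and 1 fell with CPI-0209, and 0 rose and 1 fell with valemetostat and with MAK683. Over all genes, 22.3% rose and 18.8% fell with CPI-0209, 15% and 12.2% with valemetostat and 10.4% and 5.17% with MAK683. None of the 21 matched markers was at 0 in every library, and 6 were at 0 in some. Their median log2 CPM was 2.53, -2.47 and 3.11 in vehicle, 4.39, 3.26 and 6.14 with CPI-0209, 0.94, 2.62 and 3.33 with valemetostat and 3.01, -0.66 and 3.89 with MAK683. TNNT3 alone made up 63.5% of the list's summed level in vehicle. That sum was 615 to 692 CPM in vehicle, 466 to 2274 with CPI-0209, 452 to 467 with valemetostat, 533 to 603 with MAK683, 568 to 731 with tazemetostat, 559 to 731 with PF-06821497 and 651 to 797 with CPI-1205. In 5 of the 7 groups, the library with the highest summed HOX level was also highest in the muscle median, and the count was 5 of 7 for the fibroblast and the endothelial median and 2 of 7 for the macrophage median. Among the 25 tested members, the highest library matched the fibroblast list in more groups than the muscle list for 10, in as many for 14 and in fewer for 1. HOXB3 matched the fibroblast list in 7 groups and the muscle list in 5, HOXB7 in 6 and 4, and HOXD11 in 3 and 3. The muscle and fibroblast medians differed in their highest library only in vehicle and MAK683, so differences in this tally come from those groups alone. Members were read from the same libraries and are not independent, and the source of the HOX RNA was not tested.

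MAK683 library 2, chosen after its values were seen, was low in MYH4, at 0.147 CPM, and in the muscle median, at -0.66. Its summed muscle level was 559 CPM, within the range of its group, and its fibroblast median was 3.87, against at most 1.94 in vehicle. In this library HOXD11 stood at 1.32 CPM, HOXB7 at 2.1 CPM, HOXA3 at 0.879 CPM, HOXC8 at 1.12 CPM and HOXD8 at 0.342 CPM. The part of mouse tissue in these levels was not tested.

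**Figure D4:**
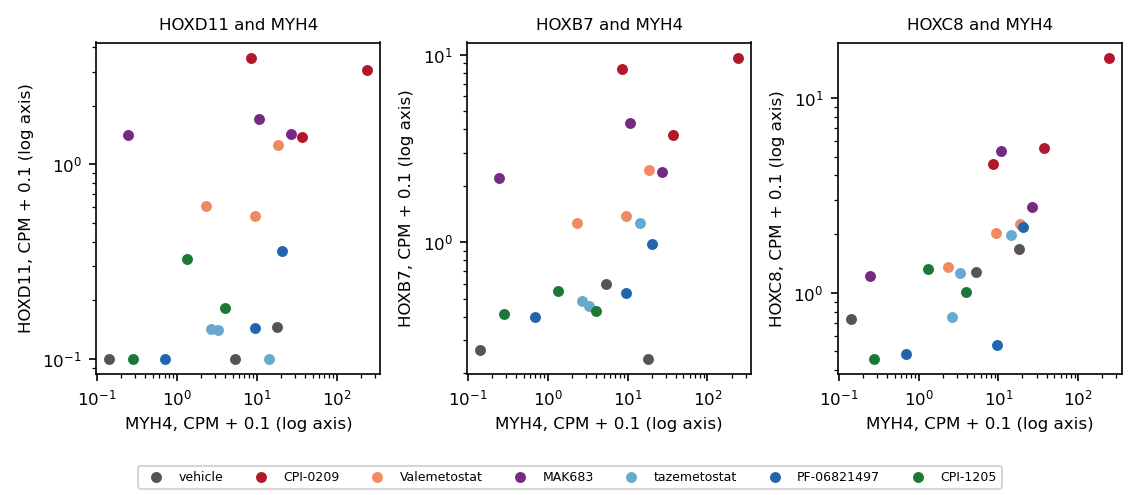
HOXD11, HOXB7 and HOXC8 (y axes, CPM + 0.1) against MYH4 (x axes, CPM + 0.1) in the 21 libraries, on log axes, with points coloured by group. CPI-0209 library 3 stands highest for MYH4, at 243 CPM, and for HOXB7 and HOXC8, while CPI-0209 library 2 is highest for HOXD11.

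With the muscle median as a covariate in the fit, 17 of the 25 members were higher with CPI-0209 (median log2 fold change 2.07), 4 with valemetostat (0.94) and 6 with MAK683 (1.07). The shares of all genes that were higher in this fit were 21.1%, 16% and 10.6%. The muscle median did not overlap between vehicle (-2.47 to 3.11) and CPI-0209 (3.26 to 6.14). Muscle level and treatment with CPI-0209 therefore cannot be fully told apart in this fit. HOXD11 was then at 6.54, 4.93 and 5.99 with the 3 compounds, HOXA3 at 4.02, 2.58 and 2.8, and HOXB7 at 4.06, 2.32 and 3.22. HOXB8 (0.45), HOXD8 (0.93), HOXD4, HOXA7, HOXA13, HOXB5 and HOXC13 no longer passed with CPI-0209. HOXC8 and HOXC6 passed at 1.63 and 1.63.

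Markers of fibroblasts moved with treatment. Over all genes, 22.3% rose and 18.8% fell with CPI-0209, 15% and 12.2% with valemetostat, 10.4% and 5.17% with MAK683 and 5.96% and 3.59% with PF-06821497. Of 21 tested fibroblast markers, 13 rose and 3 fell with CPI-0209, and 8 rose and 3 fell with valemetostat. With MAK683, 7 of these markers rose and 3 fell, and 5 rose and 1 fell with PF-06821497, where 0 HOX genes passed. Their median log2 CPM was 1.94, 1.13 and 1.86 in vehicle, 4.49, 4.5 and 5.38 with CPI-0209, 3.93, 3.8 and 4.46 with valemetostat, 4.23, 3.87 and 3.98 with MAK683 and 3.43, 1.61 and 2.4 with PF-06821497. Summed, the list was at 3686 to 5771 CPM in vehicle, 2751 to 5938 with CPI-0209, 2479 to 2879 with valemetostat, 2637 to 3983 with MAK683, 3853 to 4838 with tazemetostat, 1988 to 3593 with PF-06821497 and 2255 to 4230 with CPI-1205. FN1 was 57.5% and COL1A2 23.5% of that sum in vehicle, and none of the 21 was at 0 in any library.

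With the fibroblast median as a covariate, 0 HOX genes were higher with CPI-0209, valemetostat or MAK683, and 1, 5 and 1 were lower. Over all genes in this fit, 5.18%, 5.64% and 0.961% were higher and 6.67%, 7.23% and 0.569% lower. HOXD11 was at 3.42 (adjusted p = 0.239, edgeR) with CPI-0209 and 3.42 (0.252) with MAK683, and HOXC4 was lower with CPI-0209 at -4.09 (0.0354). Vehicle and these 3 groups do not overlap in the fibroblast median, so it and the treatment cannot be told apart in this fit. Of the other cell types, 5 of 9 endothelial markers rose and 2 fell with CPI-0209, and 7 of 9 macrophage markers rose and 1 fell. With valemetostat, 4 endothelial markers rose and 2 fell, and 4 macrophage markers rose and 1 fell. With MAK683 these counts were 3 and 1, and 3 and 0, and with PF-06821497 they were 2 and 1, and 2 and 0. The shares of all genes are those given with the fibroblast markers. The macrophage median log2 CPM was 0.19 to 0.49 in vehicle, 2.65 to 3.24 with CPI-0209, 2.2 to 2.8 with valemetostat, 1.29 to 1.58 with MAK683 and 1.3 to 1.7 with PF-06821497. Summed, the macrophage list was at 161 to 194 CPM in vehicle and 180 to 234 with CPI-0209. That sum was 162 to 197 with valemetostat, 168 to 180 with MAK683 and 143 to 171 with PF-06821497. ITGAM made up 70.6% of it in vehicle. The part of these cells in the HOX levels was not tested.

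**Figure D5:**
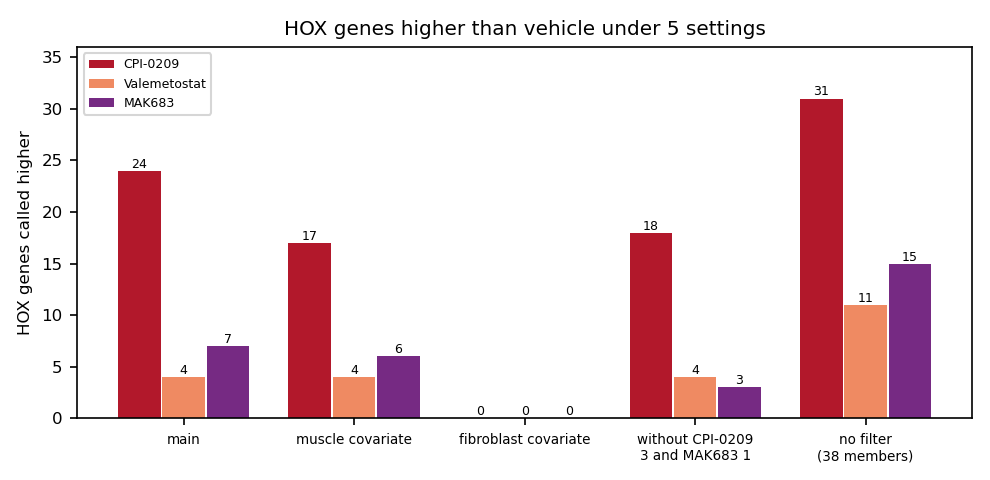
Number of HOX genes called higher than vehicle (y axis) with CPI-0209, valemetostat and MAK683 under 5 settings of the fit. The bars for CPI-0209 read 24, 17, 0, 18 and 31, and the fibroblast covariate leaves 0 for each compound.

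Leaving the fibroblast covariate aside, 17 of the 24 calls with CPI-0209 held under every other alternative in which the gene was tested. HOXA3, HOXB7 and HOXD11 did so with all 3 compounds, which share the vehicle libraries. They were 3 of the 4 calls with valemetostat and 3 of the 7 with MAK683. The fold change of HOXD11 across those alternatives ran from 6.18 to 8.74 with CPI-0209, 4.35 to 6.87 with valemetostat and 5.48 to 7.87 with MAK683.

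The filter on low counts left out 13 members: HOXA6, HOXA9, HOXA10, HOXA11, HOXB1, HOXB9, HOXB13, HOXC5, HOXC10, HOXC12, HOXD3, HOXD12 and HOXD13. With no filter, 7 of them rose with CPI-0209 (HOXA10, HOXA11, HOXB1, HOXB9, HOXB13, HOXC5 and HOXC10), 0 with valemetostat and 2 with MAK683 (HOXA11 and HOXB13). HOXC5 and HOXB9 had the most counts among them, 101 and 87 over all 21 libraries. HOXB9 held 4 counts in vehicle and 42 with CPI-0209, HOXC10 1 and 23, and HOXA10 1 and 17. HOXA11, the paralog of HOXD11 that shares its work in the forearm and kidney, held 0 counts in vehicle, 20 with CPI-0209, 4 with valemetostat and 8 with MAK683. HOXB13, a prostate gene, held 0, 10, 6 and 9 in these groups. HOXD13, HOXC12 and HOXD12 held 5, 2 and 1 counts over all libraries, and HOXA9 held 10, and none of these passed with no filter.

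Other genes tied to the HOX clusters were read beside the shares of all genes, 22.3% higher and 18.8% lower with CPI-0209, 15% and 12.2% with valemetostat, 10.4% and 5.17% with MAK683 and 5.96% and 3.59% with PF-06821497. Noncoding RNAs within the clusters were also higher in part. Of 20 listed, 4 were tested, and 3 rose and 0 fell with CPI-0209, 3 and 0 with valemetostat, 1 and 0 with MAK683 and 1 and 0 with PF-06821497. HOTAIRM1, transcribed between HOXA genes at their anterior end, was the most abundant, at 7.12 ± 0.856 CPM (SD, n = 3) in vehicle and 18 ± 2.41 CPM with CPI-0209. Its log2 fold changes were 1.33 ± 0.15 with CPI-0209, 0.86 ± 0.15 with valemetostat and 0.88 ± 0.15 with MAK683, and 0.63 ± 0.15 with PF-06821497 (adjusted p = 0.00982, edgeR). HAGLR, antisense to HOXD1, rose by 4.19 with CPI-0209 and 2.84 with valemetostat, and was at 0.0419 ± 0.0726 CPM in vehicle and 0.92 ± 0.478 CPM with CPI-0209. HOXA-AS2, which overlaps exons of HOXA3 and HOXA4, rose by 2.72 and 2.11 with these compounds. HOXC13-AS did not pass with any compound (0.82 ± 0.48 with CPI-0209).

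Genes beside the clusters did not move in 1 direction. Of 11 tested, 3 rose and 4 fell with CPI-0209, and 3 rose and 1 fell with valemetostat. SNX10, a sorting nexin beyond the HOXA cluster, was higher with CPI-0209, valemetostat, MAK683 and PF-06821497, at 0.667 ± 0.132 CPM in vehicle and 6.66 ± 0.589, 5.34 ± 1.72, 5.62 ± 0.85 and 4.07 ± 1.85 CPM with these compounds. NFE2, a blood transcription factor beside HOXC, rose by 0.73 with CPI-0209 and 0.59 with valemetostat. CBX5, which encodes heterochromatin protein HP1 alpha and lies beside HOXC, fell from 210.4 ± 7.21 to 128 ± 7.71 CPM with CPI-0209 (-0.72 ± 0.12, adjusted p = 6.83e-05). HIBADH, a valine-degrading enzyme beside HOXA, had a log2 fold change of -0.37 ± 0.1 with CPI-0209 (adjusted p = 0.00718).

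Of 9 HOX cofactors, which bind DNA with HOX proteins, 4 rose and 1 fell with CPI-0209, 1 rose with valemetostat, 2 with MAK683 and 1 with PF-06821497. MEIS3 rose most, from 1.14 ± 0.469 CPM in vehicle to 10.2 ± 0.844 CPM with CPI-0209. Its log2 fold changes were 3.17 ± 0.24 with CPI-0209, 2.94 ± 0.24 with valemetostat and 2.72 ± 0.24 with MAK683, and 1.6 ± 0.25 with PF-06821497 (adjusted p = 0.000258, edgeR). MEIS1, PKNOX2 and MEIS2 rose with CPI-0209 by 1.17, 1.44 and 1.08, and PKNOX2 rose with MAK683 by 0.99.

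Retinoic acid induces HOX genes in embryos, and its pathway stood in a list of 23 upstream regulators, of which 17 were tested. With CPI-0209, 5 rose and 5 fell, with valemetostat 3 and 4, with MAK683 3 and 2, and with PF-06821497 0 and 2. RDH10, which makes retinal, fell from 95.2 ± 5.96 CPM in vehicle to 33.1 ± 4.75 CPM with CPI-0209, 40.5 ± 2.95 CPM with valemetostat and 60.02 ± 3.68 CPM with MAK683. The retinoid receptor genes RXRA (-0.68 ± 0.11) and RARG (-0.94 ± 0.15) also fell with CPI-0209, while CRABP1, a retinoic acid binding protein, rose by 4.27, 3.23 and 2.36 on the log2 scale with the 3 compounds.

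Of the 6 core PRC2 genes, 2 rose and 2 fell with CPI-0209, and every change was under 1 on the log2 scale. EZH2 was at 72.5 ± 1.12 CPM in vehicle and rose by 0.27 ± 0.1 (adjusted p = 0.0362, edgeR) with CPI-0209, 0.31 ± 0.1 with valemetostat and 0.31 ± 0.1 with MAK683. EED rose by 0.56 with CPI-0209 and 0.38 with valemetostat, and EZH1 had a log2 fold change of -0.38 with CPI-0209 (adjusted p = 0.00862). SUZ12 did not pass with any compound, with -0.14 ± 0.19 with CPI-0209. No gene of these 5 lists passed with tazemetostat or CPI-1205 by edgeR.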

How the data were processed

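RNA from 21 HT1376 xenograft tumours was sequenced, and the authors deposited 1 table of whole-number counts per gene for each library. Per the submitters' processing notes, STAR 2.7.3a, RSEM 1.3.1 and an hg38 build were used. Not given in the sources used here are the counting program, its strand setting and whether mouse reads were removed. Groups came from the sample titles. The 38 members and the other lists were chosen with earlier results of these data known.

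From the deposited counts, edgeR 4.0.16 (R 4.3.3) fitted 1 quasi-likelihood model with a term per group to all 21 libraries, with TMM scaling (factors 0.947 to 1.08), filterByExpr and robust estimation. It tested 21958 genes with 14 residual degrees of freedom, at an adjusted p threshold of 0.05. Adjustment was by Benjamini and Hochberg over all genes, or over all genes and 15 pairs of compounds. The tested genes held 99.6% to 99.9% of each library's counts. The fit was tested on simulated data. RPKM used the gene length in the tables, and marker medians used log2 CPM with a prior count of 2. Alternatives were DESeq2 1.42.0, limma-voom (limma 3.58.1), RLE and upper-quartile scaling, other filters, only the groups compared, a replicate block, marker covariates and left-out libraries. Leaving out CPI-0209 library 3 and MAK683 library 1 together was chosen after seeing the data. Values were given per library for the 3 tested members of each cluster with the highest mean CPM, and other lists were represented by up to 4 genes with the smallest p over all groups. No pair of libraries held identical values. Replicate numbers came from titles, and 1 group's table columns carry other numbers, which leaves its group unchanged.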

Additional observations from a re-analysis of the deposited data

How the results depend on the processing

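Apart from leaving out single libraries, 85 of 96 counts of HOX calls stayed within 1.5 times the reported one, and 11 did not. The 85 include every count with tazemetostat, PF-06821497 and CPI-1205, where 0 members were higher in the main fit and in the alternatives. With fibroblast markers as a covariate, 0 members were higher with CPI-0209, 0 with valemetostat and 0 with MAK683, 2 differed among the compounds and 4 pair calls were made. With skeletal muscle markers as a covariate, 14 differed among the compounds. With no filter, 11 members rose with valemetostat and 15 with MAK683, and 209 pair calls were made. With CPI-0209 library 3 and MAK683 library 1 both left out, an alternative chosen after seeing the data, 3 rose with MAK683 and 68 pair calls were made.

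Without 1 library at a time, the counts ran from 18 to 26 with CPI-0209, 3 to 5 with valemetostat, 3 to 8 with MAK683, and 0 to 0 with each of the other 3 compounds. Among the compounds they ran from 15 to 27, and over the pairs from 70 to 126.

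Same-numbered libraries did not deviate together, with correlations of -0.313 to 0.326 (median -0.0517) over 63 pairs, and 1 of 21 libraries correlated best with its own number. With a replicate block, 23 members rose with CPI-0209, 4 with valemetostat, 6 with MAK683 and 0 with each of the others, 22 differed among the compounds and 96 pair calls were made. HOXC13 with CPI-0209 and HOXD1 with MAK683 were the calls lost.

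Signs turned only with the fibroblast covariate, whose overlap with treatment is given in the report. With CPI-0209 the values were then -2.6 for HOXA7, -0.088 for HOXA13, -0.079 for HOXB2, -1.09 for HOXB3, -1.47 for HOXB4, -2.84 for HOXB5, -2.67 for HOXB6, -3.8 for HOXB8, -4.09 for HOXC4, -2.73 for HOXC6, -2.4 for HOXC8, -0.52 for HOXC9, -3.71 for HOXD4, -3.51 for HOXD8, -1.07 for HOXD9 and -1.45 for HOXD10. With valemetostat they were -0.18 for HOXB7 and -0.13 for HOXC11, and with MAK683 -0.53 for HOXB2, -1.77 for HOXB4 and -1.28 for HOXD10. The cause was not tested. Of the other fold changes of called members, 340 kept their side of the threshold and 40 did not, and without single libraries 171 did and 39 did not. Depth limits the scarce members, since 3 counts stand for up to 0.308 CPM in the smallest library.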
